A study of Drosophila melanogaster with 3 samples.

Results

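The genes described here are 10 regulators of the proximodistal axis of the fly leg and wing, the axis that runs from the body wall to the tip. They are hth, exd and tsh of the proximal region, dac of the middle of the leg, and Dll, ss, al, bab1, bab2 and Lim1 of the distal region. They were chosen by name for their role in the axis, with earlier results of these data known. They are 10 of the 13945 protein-coding genes examined. All 10 were found in the annotation under these symbols.

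The measurements are peak lists of a ChIP-seq experiment on the zinc finger protein Noc in Drosophila melanogaster. There was 1 group, of whole larvae from a transgenic line that stably carries noc with GFP fused to the C terminus of the protein, with 3 biological replicates. Chromatin was precipitated with an antibody against GFP. Male and female larvae were pooled, and the labels give their age as 48 days, a value copied here as given. There was no untagged line or other condition among the samples, so all comparisons are between these genes and the rest of the same lists. The chromatin came from whole animals, so a small number of cells with binding at a gene and weak binding in many cells cannot be told apart, and no binding can be assigned to the leg and wing discs.

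Noc and its paralogue El, the product of elB, are zinc finger proteins of the NET family that work with the co-repressor Groucho. In genetic experiments in leg and wing discs, noc and elB are known to hold back proximal genes in the distal territory, hth and tsh among them. The axis itself is set up by Wingless and Dpp signalling, which switches on Dll distally and dac in the middle of the leg, while hth remains on proximally. Al, Lim1, Bab1, Bab2 and Ss then divide the distal part into tarsal segments and the claw-bearing tip.

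A peak summit is the position of highest signal in a peak, and the signal value is the authors' own score for a peak, and the scale of that score is not stated in the labels or files. The IDR list holds the 7201 peaks kept by the authors' test for reproducibility, the irreproducible discovery rate. These are the peaks of highest signal in the pooled list of 30000, which was called on all 3 libraries together. Each replicate also has a list of 30000 peaks, used whole or shortened to its 7201 strongest. A promoter summit has a transcription start site (TSS) of the annotation within 500 bp, and a gene's summits are those in its body with 2 kb to each side.

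The sequences at the summits are shown first, as 101 bases centred on each summit, on the plus strand of the RefSeq copy of dm6. A set of 5 short words were searched on both strands: TAATTA, a core of many homeodomain sites; TGACAG, bound by Hth and its Meis relatives; TGATNNAT, bound by Exd together with Hox proteins; AGATAA or TGATAA, bound by GATA factors; and GAGAG, bound by GAGA factor. Capitals mark any of these words, read on either strand. The first 4 hth windows are those with an Exd and Hox word, the first of them at the strongest summit of all 10 genes, and the fifth is the stronger summit at an hth promoter. The 2 bab2 windows are at its strongest summit and at the 1 with a GATA word, and those of al and Lim1 hold none of the 5 words.
hth, chr3R:10520643-10520743: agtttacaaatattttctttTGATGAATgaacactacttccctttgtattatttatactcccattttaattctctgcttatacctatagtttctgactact
hth, chr3R:10597710-10597810: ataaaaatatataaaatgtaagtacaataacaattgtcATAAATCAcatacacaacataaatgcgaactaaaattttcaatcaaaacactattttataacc
hth, chr3R:10568719-10568819: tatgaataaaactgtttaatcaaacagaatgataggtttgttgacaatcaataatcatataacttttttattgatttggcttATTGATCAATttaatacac
hth, chr3R:10545828-10545928: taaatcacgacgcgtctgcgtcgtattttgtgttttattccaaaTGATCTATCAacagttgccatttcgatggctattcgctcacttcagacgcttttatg
hth, chr3R:10614485-10614585: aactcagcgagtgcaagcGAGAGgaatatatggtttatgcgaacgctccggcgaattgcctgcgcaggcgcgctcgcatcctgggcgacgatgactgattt
bab2, chr3L:1151804-1151904: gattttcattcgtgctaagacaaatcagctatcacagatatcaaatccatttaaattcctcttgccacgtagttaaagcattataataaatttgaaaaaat
bab2, chr3L:1152845-1152945: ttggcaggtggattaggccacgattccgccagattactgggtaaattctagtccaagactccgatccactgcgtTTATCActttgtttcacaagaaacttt
al, chr2L:378942-379042: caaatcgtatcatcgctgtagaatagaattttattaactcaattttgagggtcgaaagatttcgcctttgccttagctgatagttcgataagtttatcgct
Lim1, chrX:8777286-8777386: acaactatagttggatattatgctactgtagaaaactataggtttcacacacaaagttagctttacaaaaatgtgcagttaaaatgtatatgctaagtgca

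All 9 windows are intronic except the hth promoter window, which lies upstream of the inner hth start site. Over the 27 IDR summits of the 10 genes, the Exd and Hox word was in 4 windows (14.8%), all of them in hth, and in 8.68% of the windows of all 7201 IDR summits. The GATA words were in 2 of the 27 windows (7.41%), against 22.2% of all. The word GAGAG was likewise in 2 of 27 windows (7.41%), both in hth, against 11.8% of all. TAATTA and TGACAG were in 0 of 27 windows, against 9.72% and 3.31% of all windows. A count of 0 allows a share of up to 11.1% for each (3 counts of 27). That bound takes the windows as independent, though 18 of the 27 are in hth. In the hth windows at positions 10568769 and 10545878, 2 copies of the Exd and Hox word overlap. These shares are descriptions of letters near summits, and a window without a word shows only that these letters are missing from its 101 bases.

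Of the 10 genes, 8 had at least 1 IDR summit in the body with 2 kb, and 42.1% of all protein-coding genes did. Only hth and Dll had an IDR summit at a promoter, 2 of 10 genes, against 24.5% of all genes. The 10 genes are long, with a median length of 25.1 kb against 2.17 kb for all genes, and 7 of them are among the 1395 longest genes, those of at least 14.6 kb. Among those long genes, 61.5% of genes had an IDR summit in the body and 35.1% had one at a promoter. The median was 1 IDR summit for the 10 genes and 0 for all genes, and the median pooled count was 7 against 2. Densities were taken per 10 kb of the gene with its 2 kb to each side. The medians of the pooled densities lay close together, at 1.96 summits for the 10 genes and 1.99 for all genes. A few summits give a short gene a high density, so these medians compare genes of unlike length.

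In the replicate lists of 7201 peaks, replicates 1, 2 and 3 had a promoter summit at 2, 1 and 1 of the 10 genes, against 25.4%, 23.3% and 24.7% of all genes. Summits in the body were found at 6, 6 and 3 of the 10 genes in replicates 1, 2 and 3, against 42.8%, 40.6% and 42.1% of all genes. Replicate 3 therefore had the fewest of these genes, although its share over all genes was close to that of the others. In the pooled list 5 of the 10 genes had a promoter summit, against 45.4% of all genes, and 8 had a summit in the body, against 63.0%. In the whole replicate lists the promoter count was 5, 7 and 5 genes, against 48.5%, 42.9% and 48.4% of all genes in replicates 1, 2 and 3. The body count was 9 in each of the 3 whole lists, against 65.2%, 64.5% and 64.9% of all genes. None of these counts was tested, and with 10 genes a single gene moves a share widely.

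**Figure D1:**
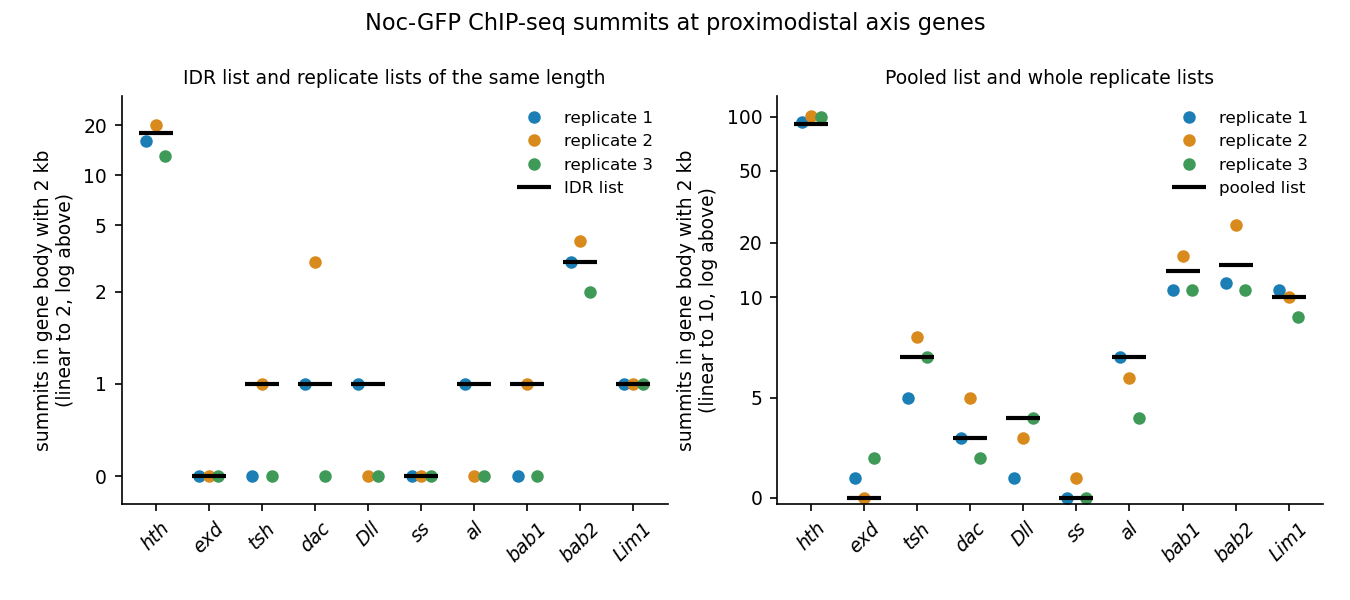
Summits in the body with 2 kb of each of the 10 genes, with replicate lists as dots and the combined list as a bar: left, the lists of 7201 peaks; right, those of 30000; the vertical axes are linear near 0 and logarithmic above. hth stands above the other genes in every list, with 18 IDR and 91 pooled summits, and exd and ss have none in either combined list.

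Most of the summits at these genes were in hth, which encodes the homeodomain protein of the Meis family that brings Exd into the nucleus and marks proximal leg and wing hinge. It spans 132 kb on the minus strand (chr3R:10507561-10639568) and held 18 of the 27 IDR summits (66.7%) and 91 of the 151 pooled summits (60.3%). The shortened lists of replicates 1, 2 and 3 had 16, 20 and 13 summits in hth, a mean of 16.3 ± 3.51 (SD, n = 3). Of the 18 IDR summits in hth, 10, 9 and 9 were left when only those matched in the shortened lists of the other 2 replicates were kept, without replicates 1, 2 and 3 in turn, which left 54.5%, 68.1% and 59.2% of all IDR peaks. The whole lists had 93, 101 and 99, a mean of 97.7 ± 4.16 (SD, n = 3). No other gene of the 10 had more than 4 summits in a shortened list, and hth had the highest count of the 10 in every replicate. Among all protein-coding genes, 5 had more IDR summits than hth and 2 had more pooled summits. Of the 1395 longest genes, 0.43% had 18 or more, and the median there was 1 IDR summit and 8 pooled summits. Counted per length, with the 2 kb to each side included, hth stood less far out, at 1.32 IDR summits per 10 kb. By that measure 31.9% of all protein-coding genes had a higher density. A short gene can exceed the value of hth with 1 summit, and densities were not ranked among the long genes alone. For the pooled list 14.2% of genes had a higher density than hth.

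**Figure D2:**
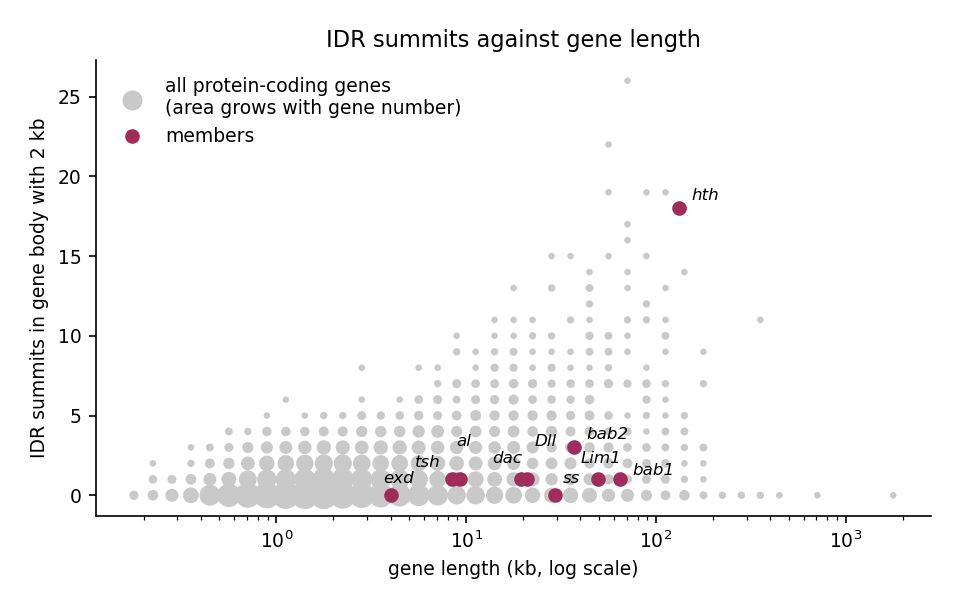
IDR summits in the body with 2 kb against gene length on a logarithmic axis, for the 10 named genes and for all protein-coding genes, whose grey dots grow with the number of genes at a point. hth, at 132 kb, has 18 summits, and bab2 is next with 3.

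The hth summits were spread over 104 kb, with a median gap of 3.36 kb between neighbours and a widest gap of 27.2 kb. They came from 16 distinct intervals, as 2 intervals held a pair of summits. Annotated hth transcripts start at 2 places, 4 at an inner TSS (position 10614276) and 1 at the upstream end of the gene (position 10639568). In the longest transcript, which starts at the inner TSS and has 13 introns, intron 3 of 9.19 kb held 4 IDR summits and intron 6 of 23.7 kb held 3. Introns 7 and 8 held 2 each, and introns 1, 10 and 11 held 1 each. The other 4 lay upstream of the inner TSS, within the transcript from the upstream end.

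The strongest hth summit had a signal value of 753 and ranked 1107th of all peaks. It lies at position 10520693, in intron 11 and 93583 bp downstream of the inner TSS. It ranked 1030, 1383 and 1207 in replicates 1, 2 and 3, with signal values of 325, 192 and 266, so the 3 libraries placed it within a narrow range. The second, at 10595996 in intron 3, had a signal value of 606.2 and ranks of 1910, 2196 and 1201. The third, at 10612091 in intron 1, was 2185 bp downstream of the inner TSS, with a signal value of 567.5 and ranks of 1412, 2756 and 2141. These 3 summits were in the shortened lists of all 3 replicates. The next, of 516.3 at 10566862, ranked 1934 and 3151 in replicates 1 and 2, and replicate 3 had no summit within 100 bp of it. A second summit in the same interval, 10567061, was ranked 2183 in replicate 3, against 3468 and 10303 in replicates 1 and 2. The replicates thus placed the summit of this interval differently.

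At the inner hth promoter there were 2 IDR summits, 259 and 466 bp upstream of the TSS. The nearer had a signal value of 452.4 and ranks of 2593 and 1913 in replicates 1 and 3, and replicate 2 had no summit within 100 bp. The farther had 236.8 and ranks of 9444, 3437 and 5726. The promoter thus had a summit in every replicate, and replicate 2 had only the farther one. The upstream hth TSS had no IDR summit within 500 bp. A summit of 971.5, stronger than any inside hth, lies 3.74 kb beyond that TSS and so outside the 2 kb counted. It is in an exon of asRNA:CR44018, a non-coding RNA gene on the plus strand that overlaps the upstream end of hth.

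**Figure D3:**
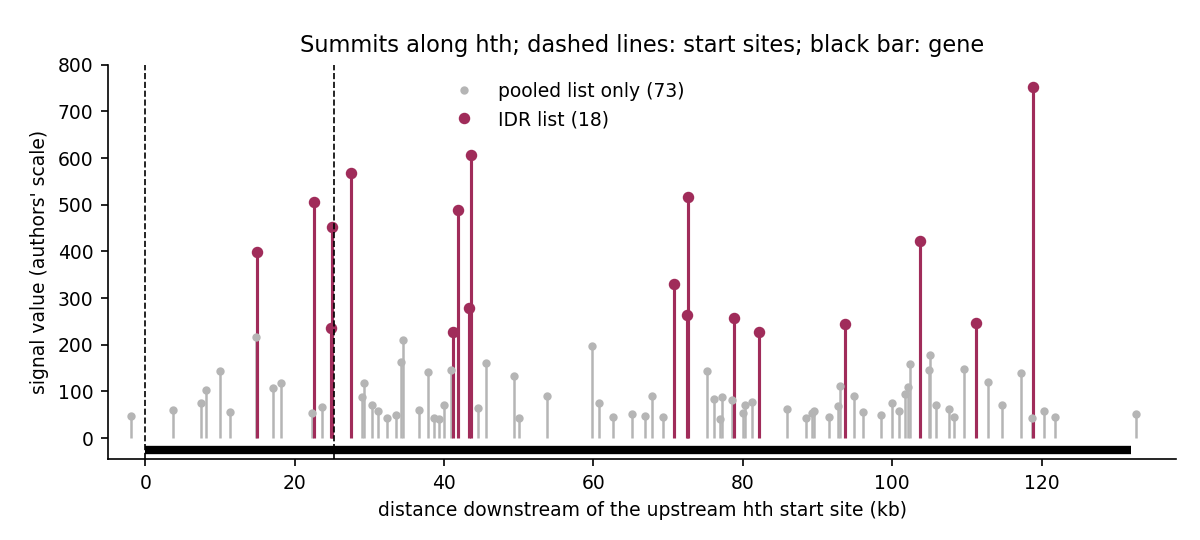
Signal value of each summit in hth with 2 kb to each side against the distance downstream of its upstream start site, with the 18 IDR summits in red and the 73 of the pooled list alone in grey. The IDR summits lie throughout the gene, the strongest, of 753, near its far end, and the dashed lines mark the 2 start sites.

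exd encodes the Pbx-family homeodomain partner of Hth and of Hox proteins. It is the shortest of the 10 genes, at 4.04 kb (chrX:15992468-15996509), and had no IDR or pooled summit and none in the 3 shortened replicate lists. The nearest IDR summit was 93.9 kb from the gene, in an intron near Tob, with a signal value of 1562, and the nearest pooled summit was 75.8 kb away, near Nipsnap. The pooled list had no summit over 180 kb around exd, the 8th longest of its 29994 gaps between neighbouring summits, and 23 protein-coding genes lie wholly inside it. Replicate 1 had a summit 611 bp upstream of exd, of rank 10415. Replicate 3 had one 593 bp upstream, of rank 14838, and a weaker one 1181 bp upstream, and replicate 2 had none. The summits at 611 and 593 bp are nearer to the start shared by eIF5 and CG46312, at 117 and 99 bp. Neither had a pooled summit within 100 bp. Among the peaks within 500 ranks of each, 86.8% in replicate 1 and 74.9% in replicate 3 had one.

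tsh encodes a zinc finger protein of the trunk and proximal appendages (chr2L:21828593-21837011, 8.42 kb). It had 1 IDR summit, of 249.4, in the first intron 4073 bp downstream of the TSS, ranked 7898, 5251 and 8785 in replicates 1, 2 and 3. Only replicate 2 kept it among its strongest 7201. The pooled list had 7 summits at tsh, 3 of them at the promoter with signal values of 179.6, 147.4 and 114.8. The first of these, 349 bp downstream of the TSS, was in all 3 whole replicate lists, at ranks of 8368, 11651 and 10504. The tsh promoter thus carried signal in every library, at rank 9068 of the pooled list and so outside the IDR list. Further IDR summits of 445.4 and 310.8 lay 2.04 kb downstream and 7.17 kb upstream of the gene.

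dac encodes a nuclear protein related to Ski and Sno that is needed for the middle of the leg (chr2L:16466512-16485998, 19.5 kb). Its 1 IDR summit, of 219.2, was in intron 2 and 9704 bp downstream of the TSS, ranked 7131, 6449 and 9896 in replicates 1, 2 and 3. That value is close to the lowest signal of the IDR list, 217.6. The shortened lists of replicates 1, 2 and 3 had 1, 3 and 0 summits in dac. Outside the gene, IDR summits of 234.7, 579.9 and 834.4 lay 5.4, 6.76 and 9.39 kb upstream, all nearest to the TSS of Tpr2, the neighbouring gene. The pooled list had no summit at the dac promoter.

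Dll encodes the homeodomain protein required for the distal leg (chr2R:24814822-24835667, 20.8 kb). Its 1 IDR summit lay 107 bp upstream of its TSS on chromosome arm 2R, and it was the only IDR promoter summit among the 10 genes outside hth. Its signal value of 218.5 ranked 7172 of 7201, and it ranked 6368, 7787 and 7572 in replicates 1, 2 and 3. It was therefore present in all 3 libraries, near the end of the IDR list, and among the strongest 7201 only in replicate 1. Dll had 4 pooled summits in all, and 1, 3 and 4 in the whole lists of replicates 1, 2 and 3.

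ss encodes a bHLH-PAS protein of tarsus and antenna. Its 29.3 kb (chr3R:16374434-16403690) held no IDR or pooled summit, and the pooled list was empty over 73.8 kb around it. The only trace was 1 summit in replicate 2 of rank 24187. It lay outside ss, in the 2 kb beyond its 3' end and 30381 bp from its TSS. The nearest TSS was that of lncRNA:CR45193, at 524 bp. The nearest IDR summit was 18.9 kb from the gene, near CG10311, with a signal value of 505.9.

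al encodes a paired-type homeodomain protein of the leg tip (chr2L:378112-387439, 9.33 kb). Its IDR summit of 239.2 was in intron 1, 880 bp downstream of the TSS, and ranked 5025 and 7780 in replicates 1 and 3. Replicate 2 had no summit within 100 bp. The pooled list also had a promoter summit of 116, 34 bp upstream of the TSS, among 7 in all. Lim1 encodes a LIM-homeodomain protein of the same leg tip (chrX:8756539-8805804, 49.3 kb). It had 1 IDR summit, of 255.9, in intron 3, ranked 17280, 5206 and 6454 in replicates 1, 2 and 3, so replicate 1 ranked it far lower than the other libraries. Its pooled summits numbered 10, and 1 of them, of 143.3, was 134 bp upstream of a TSS.

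bab1 and bab2 are neighbouring paralogues on 3L that encode BTB-domain proteins of the tarsal segments, bab1 at chr3L:1036369-1101089 (64.7 kb) and bab2 at chr3L:1140429-1177276 (36.8 kb). bab2 had 3 IDR summits, all in its second intron of 28.8 kb, with signal values of 372.2, 302.9 and 264.6. The shortened lists of replicates 1, 2 and 3 had 3, 4 and 2 summits there, a mean of 3.0 ± 1.0 (SD, n = 3). The strongest ranked 5516, 1525 and 7984 in replicates 1, 2 and 3, and the summit of 302.9 was in all 3 shortened lists. bab1 had 1 IDR summit, of 229.6, in its first intron of 58.7 kb, ranked 11039, 4218 and 9160. The pooled counts of the paralogues were close, at 15 for bab2 and 14 for bab1. Neither gene had a pooled summit within 500 bp of its TSS. Among the whole replicate lists only that of replicate 2 had one, with signal values of 16.3 at bab1 and 24.7 at bab2. In the whole lists of replicates 1, 2 and 3, bab2 had 12, 25 and 11 summits and bab1 had 11, 17 and 11, so replicate 2 was highest for both.

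Most of the 27 summits lay in introns and far from any start site. Introns held 24 of them (88.9%, 95% Wilson interval 71.9% to 96.1%), against 38.6% of all IDR summits. Promoters held 3 (11.1%, 3.85% to 28.1%), against 49.0% of all. In UTRs and coding exons there were 0 of 27 summits, which allows a share of up to 11.1% for each (3 counts of 27). Intergenic DNA also held 0 of 27. Summits of the 10 genes were counted only in gene bodies with 2 kb to each side, which leave little intergenic DNA. The shares over all IDR summits were not limited in this way. In the shortened lists the promoter share at the 10 genes was 8.7%, 3.33% and 12.5% in replicates 1, 2 and 3, a mean of 8.18% ± 4.61. The same share over all summits was 50.7%, 43.7% and 50.4%, a mean of 48.3% ± 3.98 (SD, n = 3 each). The ranges of the 3 replicates did not overlap. In the bodies with 2 kb of the 1395 longest genes, which held 3072 IDR summits, the promoter share was 35.5% and the intron share 59.9%. The median distance from a summit to the nearest TSS of any gene was 15.2 kb for the 10 genes, against 538 bp for all IDR summits and 1.21 kb among those long genes. Without hth, 8 of 9 summits were intronic. The difference was not tested, because 18 of the 27 summits share 1 gene, and the intervals cover counting error only.

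**Figure D4:**
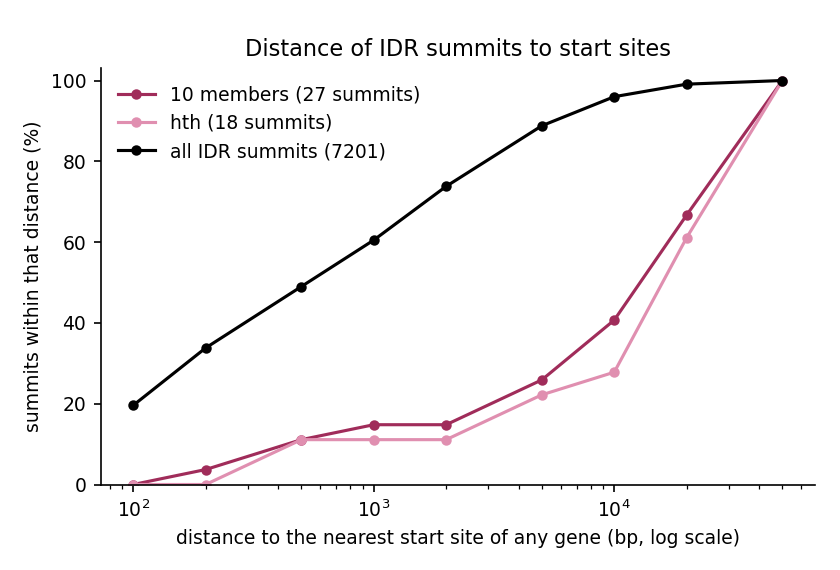
Cumulative share of IDR summits against the distance to the nearest start site of any gene, on a logarithmic axis, for the 27 summits at the 10 genes, the 18 of hth and all 7201. At 500 bp the curves stand at 11.1% for the 10 genes and 49.0% for all summits.

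Outside hth the summits were mostly weak ones of the IDR list. Over all 27 the median signal value was 264.6 (range 218.5 to 753), against 364 for all IDR summits, and 10 of 27 were among the 3600 of higher signal. That count was 9 of 18 in hth and 1 of 9 in the other genes, the 1 being in bab2. The median peak width was 253 bp at the 10 genes, against 364 bp for all IDR peaks. The median GC content of the windows was 37.6%, against 35.6%. In the pooled list, 17.9% of the summits at the 10 genes reached the IDR list, against 24.0% of all.

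Of the 27 summits, 8 (29.6%) were in the shortened lists of all 3 replicates within 100 bp, against 49.7% of all IDR summits. Those 8 were 7 in hth and 1 in bab2. Single replicates held 63.0%, 77.8% and 59.3% of the 27 in replicates 1, 2 and 3, a mean of 66.7% ± 9.8, against 82.5%, 68.9% and 78.6% of all, a mean of 76.7% ± 7.0 (SD, n = 3 each). The ranges overlapped, and replicate 2 held the highest share at these genes and the lowest over all summits. In the whole replicate lists 23 of 27 (85.2%) were found in all 3, against 78.6% of all IDR summits. Most of these summits were therefore detected in every library, often below its strongest 7201. Of the 124 pooled summits below the IDR list, 31 (25.0%) were in all 3 whole lists, against 24.1% of all such summits.

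**Figure D5:**
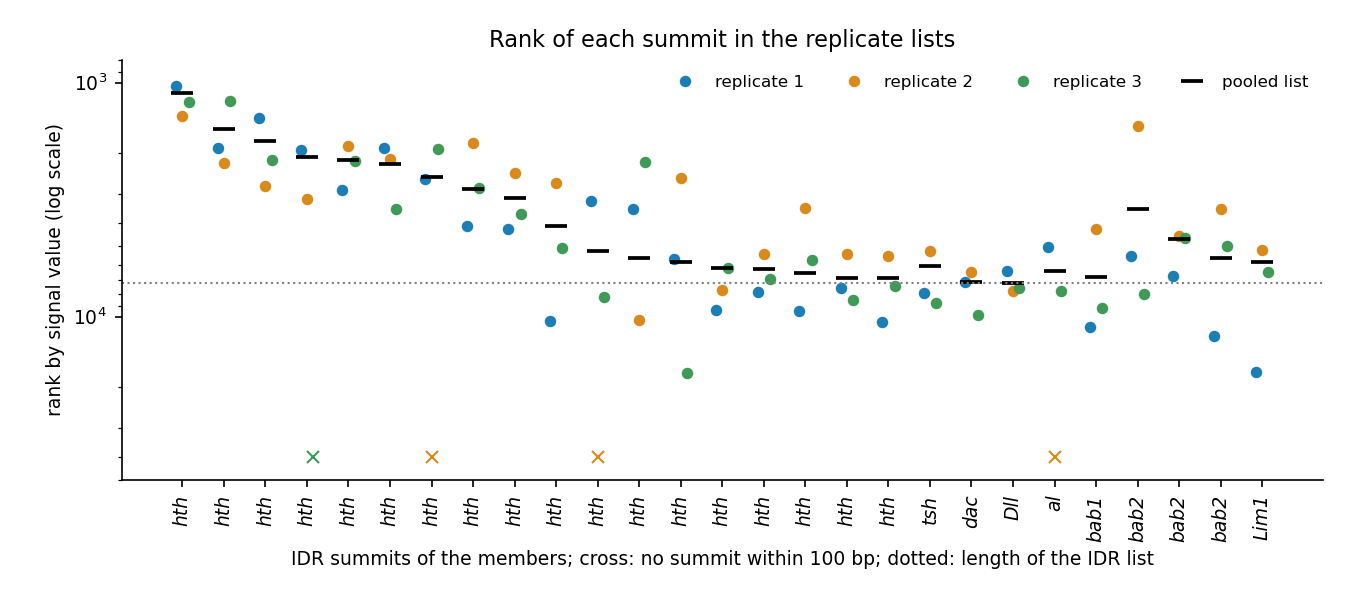
Rank by signal value, on a logarithmic axis with the strongest at the top, of each of the 27 IDR summits in the pooled list (bar) and in the 3 replicate lists (dots). Crosses mark the 4 summits with no match within 100 bp in a replicate, and the dotted line is rank 7201; outside hth most summits lie near that line.

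Other genes of the axis, a list of 30 that includes upstream signals, odd-skipped family genes and wing regulators, were counted in the same way. An IDR promoter summit was present at 2 of the 10 genes, against 7 of these 30 (23.3%) and 24.5% of all protein-coding genes. A pooled promoter summit was present at 5 of 10, against 23 of 30 (76.7%) and 45.4% of all genes. A summit in the body was present in the IDR list at 8 of 10, against 13 of 30 (43.3%) and 42.1% of all genes. The pooled list had one at 8 of 10, against 24 of 30 (80.0%) and 63.0% of all genes. The body counts did not keep 1 direction over the replicates: the shortened lists had 6, 6 and 3 of 10, against 13, 17 and 13 of 30 (43.3%, 56.7% and 43.3%) in replicates 1, 2 and 3. Over all genes those lists had a body summit at 42.8%, 40.6% and 42.1%. The median length was 25.1 kb for the 10 genes and 14.5 kb for the 30. The 7 with an IDR promoter summit were bowl (signal value 1430), noc itself (1080), dysf (382), sd (344), elB (273), Egfr (269) and ap (221). Of these, bowl encodes an odd-skipped family protein of leg joints, dysf a bHLH-PAS protein of tarsal joints, sd the DNA-binding partner of Vestigial, and ap a LIM-homeodomain protein of the dorsal wing and distal leg. Against 18 IDR summits in hth, elB had 10, noc and bowl had 8 each, and nub, a POU-domain gene of wing and leg, and dve, a homeodomain gene, had 4 each. Of the 30 genes, 17 had none. noc is also the gene that the line carries fused to GFP, and whether that transgene adds to the summits at noc was not tested.

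The genes whose counts over the 5 lists (IDR, pooled and the 3 shortened replicate lists) were closest to those of hth were Eip75B, bun and kirre. Their absolute differences from hth summed to 23, 27 and 30 summits. Eip75B (114 kb) had 19 IDR and 83 pooled summits, bun (91.1 kb) had 19 and 102, and kirre (394 kb) had 11 and 102. All 3 are long genes, and the likeness is in counts alone.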

How the data were processed

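The 3 libraries are those of 1 group, per the labels, with sonicated fragments of 200 to 800 bp. Per the text notes deposited with the lists, each replicate was called with a control alignment, which was not analysed here, and the pooled and IDR lists were made from all 3. The read depth is unknown. No aligner or peak caller is named in the sources used here. The signal value is a score deposited by the authors, used to describe, rank and filter peaks within a list. Coordinates are 1-based on dm6, the assembly per the labels, and no peak ran past the end of the RefSeq sequence. Genes and TSSs came from Ensembl release 115, and sequence from RefSeq. Summits were classed by position, with promoter first, then UTRs, exons, introns and intergenic DNA. Summits matched within 100 bp. Counting was done in Python 3.11.15 with pandas 2.3.3 and numpy 2.4.6, intervals with scipy 1.17.1 and plots with matplotlib 3.10.9, and the counting was checked on simulated data. No test was made. The 10 genes, the list of 30, the words and the rules were chosen with earlier results of these data known. The genes named were all 10 genes, the 7 of the 30 with an IDR promoter summit (the rule allowed up to 8), the 4 with most IDR summits (a tie adds 1), and the 3 genes most like hth. Other neighbours of summits were named after their values were seen. The replicates are biological replicates per the labels, and SDs measure their spread.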

Additional observations from a re-analysis of the deposited data

How the results depend on the processing

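Without hth, an alternative chosen after seeing the data, 9 IDR summits remained at the other genes, 11.1% of them in all 3 shortened replicate lists. With the 3600 IDR peaks of higher signal, the 10 genes had 10 summits, a promoter summit at 1 gene, a body summit at 2 and 70.0% of summits in all 3 replicates. Over all genes that list put a promoter summit at 14.9% and a body summit at 28.8%, and 79.4% of all its summits were in all 3 replicates. Of the 30 other axis genes 3 had a promoter summit in it. The list of replicate 3 gave 16 summits, 3 genes with a body summit and 1 with a promoter summit. The list of replicate 2 gave 1 gene with a promoter summit and a promoter share of 3.33%. In the pooled list there were 151 summits, 5 genes with a promoter summit and 23 of the 30. A distance of 250 bp to a TSS gave 1 gene and a promoter share of 3.7%. The shares over all genes and all summits are not given here for 250 bp. Of all IDR summits, 33.8% lay within 200 bp of a TSS and 49.0% within 500 bp, so the share over all summits also falls at shorter distances. A match within 250 bp put 55.6% of summits in all 3 replicates, and the share of all IDR summits at that distance is not given here. Whole replicate lists put 85.2% there, against 78.6% of all IDR summits. Leaving out 1 replicate and keeping the IDR peaks matched in the remaining pair shortened the list from 7201 to 3925, 4901 and 4266 peaks without replicates 1, 2 and 3. It then held 13, 10 and 12 of the 27 summits (48.1%, 37.0% and 44.4%), against 54.5%, 68.1% and 59.2% of all IDR peaks, and 10, 9 and 9 of the 18 in hth. A body summit was at 3, 2 and 3 of the 10 genes, against 29.2%, 34.9% and 31.3% of all genes, and a promoter summit at 1, 1 and 0, against 14.8%, 18.6% and 16.2%. Of the 30 other genes, 2 to 5 had a promoter summit. The promoter share of the 10 genes' summits ranged from 0 to 10%, against 47.3% to 50.3% of all. Each left-out replicate had still entered the pooled call. For the 8 genes with an IDR summit, 37 of 88 single-gene alternatives stayed within 1.5 times the count and 51 moved beyond it. No paired analysis was possible because there is 1 group. Read depth is unknown, and the lists end at 30000 peaks, so weaker sites are not detectable here.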
